A study of Caenorhabditis elegans with 9 samples.

Results

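The srw, srz, srbc and srsx genes are 4 families of Caenorhabditis elegans chemoreceptors that stand outside the large receptor superfamilies Str, Sra and Srg, and are therefore called solo families. The members described here are the genes of these families that have at least 1 DNase I hypersensitive site (DHS) outside exons assigned to them, by gene symbol, in the gene tables for embryos or for arrested first-stage (L1) larvae. There were 78 such genes of 11433 genes in either table. Of these, 68 were among the 11053 genes of the embryo table and 54 among the 8202 genes of the L1 table. By family, 34 were srw, 22 srz, 16 srbc and 6 srsx genes, and 4 of them (srbc-18, srw-75, srz-8 and srz-76) are marked as pseudogenes in the RefSeq gene table.

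Chemoreceptors of this kind are G protein-coupled receptors with a membrane-spanning helix bundle, and many sit in the sensory cilia of chemosensory neurons, where ligand binding is passed on by G proteins to ion channels. Many worm chemoreceptor genes lie in tandem arrays on the autosomal arms and are expressed in few neurons. The srw family resembles peptide receptors in sequence, and for most genes of the 4 families no ligand is known.

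Nuclei came from wild-type N2 worms at 2 stages, embryos of about 40 cells (4 replicates) and L1 larvae in arrest (5 replicates), a state in which hatched larvae without food stop developing. In DNase-seq, DNase I cuts accessible DNA in nuclei, and a local excess of cuts marks a DHS. Neither stage was sorted for a cell type, so a DHS in a few cells and one in many cells cannot be told apart. The lists were merged over replicates by the authors, with 1 list per stage, so no value below has a replicate error or a test between stages.

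The embryo list held 26644 noncoding DHS and the L1 list 16084. A gene can lack an L1 site because the L1 list is shorter, and the read depth behind the sites is unknown. Intervals in parentheses are exact 95% binomial intervals, which cover counting error only and treat neighbouring genes as separate. The deposited score of a DHS is given as a percentile within the list of its own stage, and such ranks show no change between stages. Defining genes of other tissues were in the lists too. In the embryo 6 of 6 amphid sensory neuron genes, 3 of 3 intestine genes and 3 of 3 body wall muscle genes had a noncoding DHS, against 3, 2 and 2 of them in L1.

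Few genes of the solo families had an assigned noncoding DHS at either stage. The full lists held 41825 embryo and 23670 L1 DHS, and DHS in exons were not counted here. Repeats had also been removed by the authors, so a gene without a noncoding DHS can still hold an accessible site. Of the 279 protein-coding genes of the 4 families, 65 had a noncoding DHS in the embryo (23.3%, 18.5 to 28.7) and 51 in L1 arrest (18.3%, 13.9 to 23.3). Over all 19971 coding genes these shares were 52.4% in the embryo and 38.9% in L1, above both intervals. With either stage counted, 74 of the 279 genes had a noncoding DHS (26.5%), against 54.2% of all coding genes, and 205 had none. The genes without one include srbc-64 and srbc-66, known as receptors for components of the dauer pheromone and named here for that role, outside the rule for named genes.

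The srz and srw families had the higher shares in the embryo and srw in L1. In the embryo the share was 26.6% for srw (29 of 109 genes, 18.6 to 35.9), 30.2% for srz (19 of 63, 19.2 to 43.0), 15.7% for srbc (11 of 70, 8.11 to 26.4) and 16.2% for srsx (6 of 37, 6.19 to 32.0). In L1 it was 23.9% for srw (26 genes, 16.2 to 33.0), 15.9% for srz (10 genes, 7.88 to 27.3), 12.9% for srbc (9 genes, 6.05 to 23.0) and 16.2% for srsx (the same number of genes as in the embryo). The intervals of every family overlapped those of the others at each stage. The counts of the stages depend on the length of the lists. With the embryo list cut to the number of L1 DHS by score, 11 srz, 18 srw, 5 srbc and 5 srsx genes had an embryo DHS, in all 39 of 279 (14.0%), below the 51 of L1.

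The other chemoreceptors also lay below all coding genes. The Str superfamily had a DHS at 27.1% of its 580 coding genes in the embryo and 20.3% in L1, Srg at 27.8% and 20.7% of 309, and Sra at 34.7% and 27.4% of 124. At both stages the interval of the solo families reached above the Str and Srg values and ended below that of Sra.

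**Figure D1:**
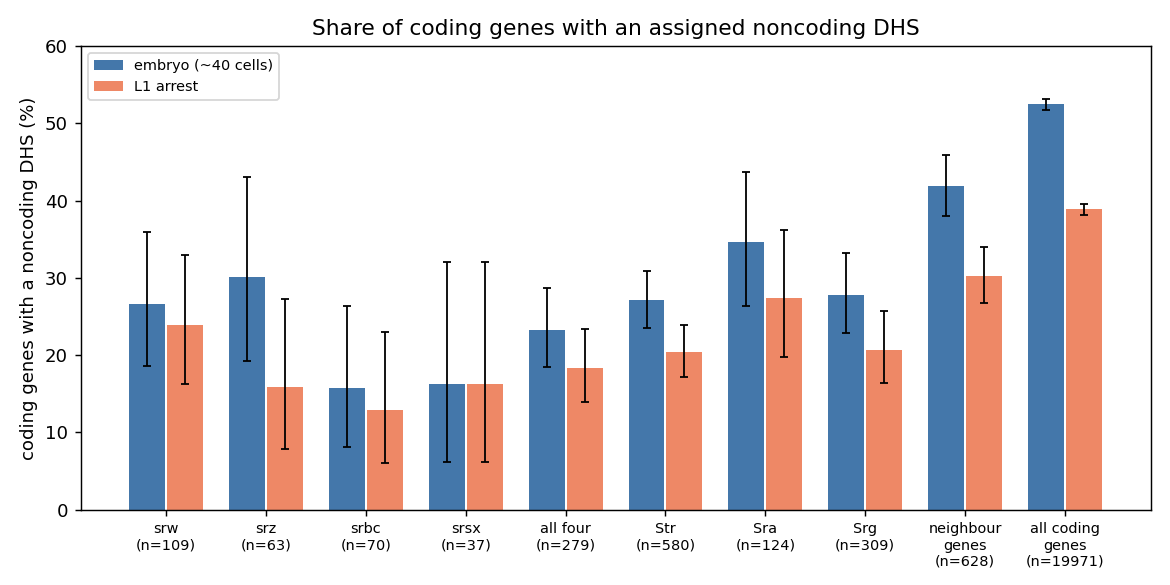
Share of coding genes (%) with at least 1 assigned noncoding DHS in embryos and L1 arrest, by family, for the 4 families together, for the Str, Sra and Srg superfamilies, for neighbouring genes and for all coding genes; bars are shares, error lines exact 95% binomial intervals and n the number of coding genes. All chemoreceptor groups lie below the 52.4% and 38.9% of all coding genes.

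Chromosome V held 221 of the 279 coding genes, IV held 37, II 11, I 6, III 4 and X none. On V, 45 genes (20.4%, 15.3 to 26.3) had an embryo DHS and 38 (17.2%, 12.5 to 22.8) an L1 DHS. Elsewhere 20 of 58 genes (34.5%, 22.5 to 48.1) had one in the embryo and 13 (22.4%, 12.5 to 35.3) in L1. The remaining 4774 coding genes of V had one in 42.1% and 31.9% of cases. For 628 coding genes that are no chemoreceptors and lie within 3 gene positions of a solo family gene, the shares were 41.9% and 30.3%. The solo genes of V thus lay below the other genes of V at both stages. The interval of the solo genes off V included the value of the neighbours at each stage. It ended below the share of all coding genes, which was 52.4% in the embryo and 38.9% in L1. The neighbours were taken around the solo genes of every chromosome, most of which lie on V. Other coding genes off V were not counted apart.

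Most sites on V lay near its ends. Outside the middle from 5 to 15 Mb lay 60 of the 65 embryo DHS of members on V (92.3%, 83.0 to 97.5), against 50.4% of all assigned noncoding embryo DHS of V. In L1 it was 52 of 56 (92.9%, 82.7 to 98.0), against 54.5%. The stretch from 15 to 20 Mb alone held 31 embryo and 29 L1 sites of members. Sites are assigned by gene, so these positions follow those of the genes and do not measure accessibility along V.

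The members' DHS numbered 95 in the embryo and 74 in L1 arrest, and most genes had a single one. Of the 68 embryo genes 50 had 1 DHS and 18 had more, and of the 54 L1 genes 40 had 1 and 14 more. Among coding genes with a DHS in the embryo, 26.2% of the members and 54.1% of all genes had at least 2, and in L1 it was 27.5% and 45.0%. One embryo DHS, of srz-47, was also assigned to another gene, and both embryo entries of srbc-32 are intron parts of 13 and 33 bp of 1 DHS.

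**Figure D2:**
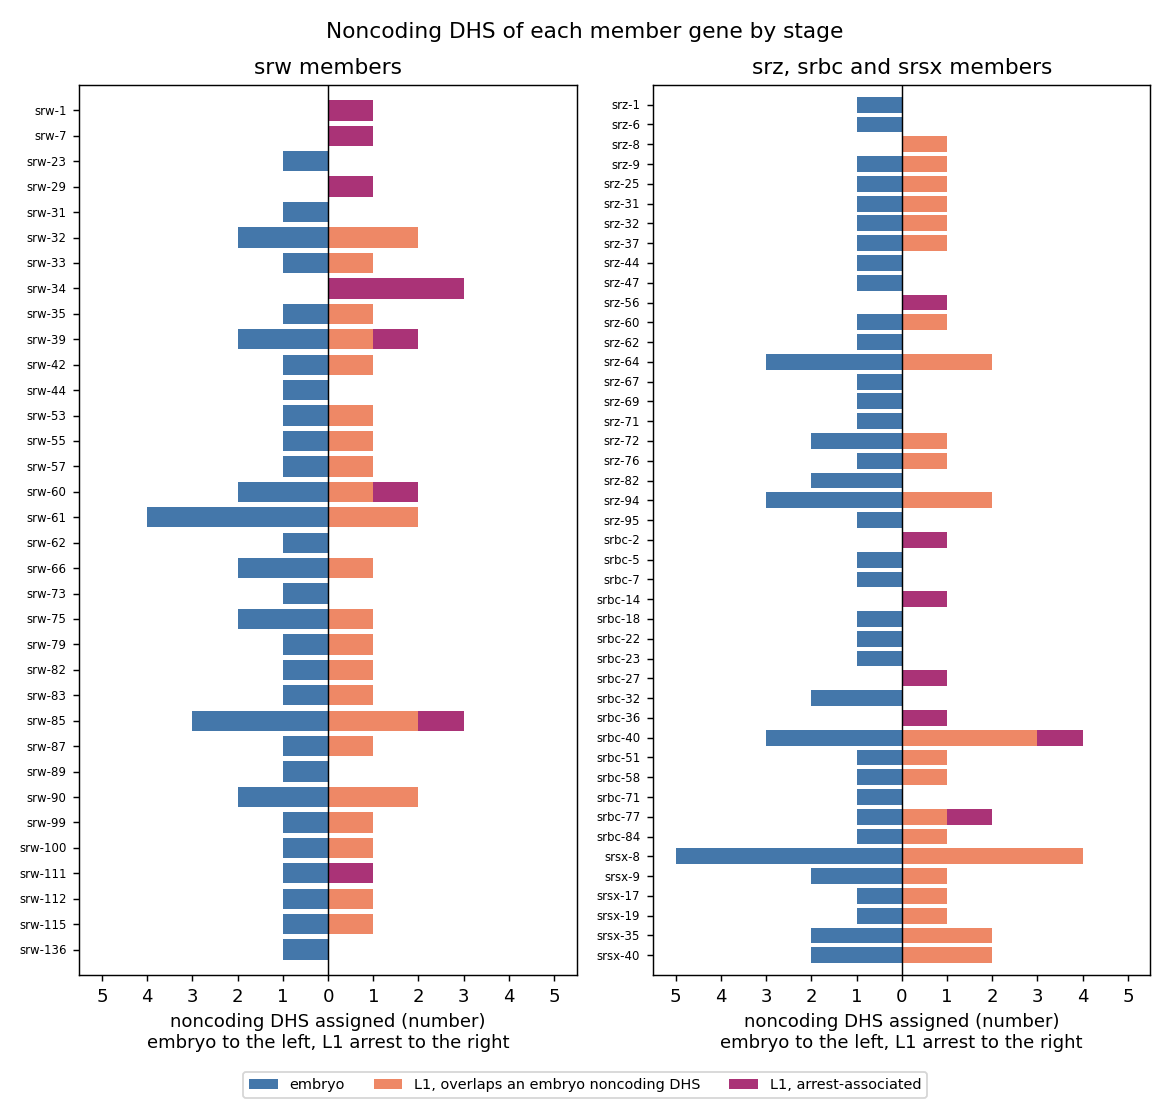
Number of noncoding DHS assigned to each of the 78 member genes, with embryo DHS to the left and L1 DHS to the right of 0; L1 bars are split into DHS that overlap an embryo noncoding DHS and arrest-associated DHS. Most genes have 1 DHS at a stage, srsx-8 has the most (5 and 4), and srw-34 has 3 in L1 and none in the embryo.

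Of the 78 members, 44 had a DHS at both stages, 24 only in the embryo list and 10 only in the L1 list. Among coding genes with a DHS, 56.8% of the solo genes and 68.5% of all genes were in both lists. In the embryo list alone were 31.1% of the solo genes, near the 28.3% of all genes. More DHS in the embryo than in L1 were found at 32 members (41.0%), equal numbers at 34 (43.6%) and more in L1 at 12 (15.4%). Over the 10821 coding genes with a DHS these shares were 60.8%, 32.1% and 7.13%. The L1 list supplied 43.8% of the members' entries and 37.6% of all entries.

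The families split differently between the lists. All 6 srsx genes had a DHS at both stages, as did 23 of 34 srw, 10 of 22 srz and 5 of 16 srbc genes. The embryo list alone held 10 srz, 7 srw and 7 srbc genes. The L1 list alone held 4 srw, 4 srbc and 2 srz genes. Among coding genes, 9 of 74 solo genes were in the L1 list alone (12.2%), against 3.23% of all, 7.65% of Str, 9.47% of Srg and 0% of Sra genes.

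Sites found at 1 stage ranked low in their list. The best DHS of the 24 embryo-only genes had a median score percentile of 23.5, from 0.713 at srw-89 to 72.4 at srz-67. For the 10 L1-only genes the median was 28.9, from 1.495 at srw-1 to 57.0 at srbc-27. For the 44 genes with DHS at both stages the median of the best site was 70.3 in the embryo and 59.2 in L1. Of these 44 genes, 27 had 1 DHS at each stage. Elsewhere the best of several sites was taken, which by itself raises the rank. Such medians were not computed over all genes. No DHS of the embryo-only genes overlapped any noncoding L1 DHS, which is largely set by choosing genes without an assigned L1 DHS. Of the L1-only genes, srz-8 had a DHS that overlapped an embryo site assigned to fbxa-78, an F-box gene, so its absence from the embryo table rests on the assignment.

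Most sites of members overlapped a noncoding DHS of the other stage. Of the 95 embryo DHS, 56 overlapped a noncoding L1 DHS (58.9%, 48.4 to 68.9), against 53.5% of all embryo DHS. Of the 74 L1 DHS, 57 overlapped a noncoding embryo DHS (77.0%, 65.8 to 86.0), against 88.6% of all L1 DHS. The L1 DHS without such an overlap are the arrest-associated ones described below, and 3 of them belong to the single gene srw-34. The 57 overlapping pairs had centres a median of 20 bp apart, with a largest shift of 75.5 bp and 51 pairs within 50 bp. Pairs were chosen by overlap and most DHS were 150 bp wide, so small shifts are largely set by that choice. The shift was not computed over all shared DHS. Among the 44 genes of both lists, 43 had such a shared site. The exception was srw-111, whose intron DHS lay 70 bp apart between stages.

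Overlap was more common among high-scoring DHS. At or above the 50th percentile of the embryo list by score, 36 of 40 DHS of members overlapped an L1 site (90%, 76.3 to 97.2), and below it 20 of 55 (36.4%, 23.8 to 50.4). The corresponding shares of all embryo DHS were 82.8% and 24.1%. In L1, 35 of 36 DHS of members at or above the 50th percentile overlapped an embryo site (97.2%, 85.5 to 99.9; all L1 DHS 92.6%) and 22 of 38 below it did (57.9%, 40.8 to 73.7; all 84.5%). The share of all L1 DHS thus lay above the members' interval among the low-scoring DHS and inside it among the high-scoring ones.

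Ranks within each list varied between families. The median score percentile of the members was 42.1 in the embryo and 46.3 in L1. In the embryo it was 44.9 for srw, 40.9 for srz, 30.6 for srbc and 71.6 for srsx. In L1 it was 36.4 for srw, 69.3 for srz, 54.8 for srbc and 64.6 for srsx. Each family spread widely, in the embryo from 0.647 to 96.7 for srw and from 1.25 to 99.4 for srsx.

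**Figure D3:**
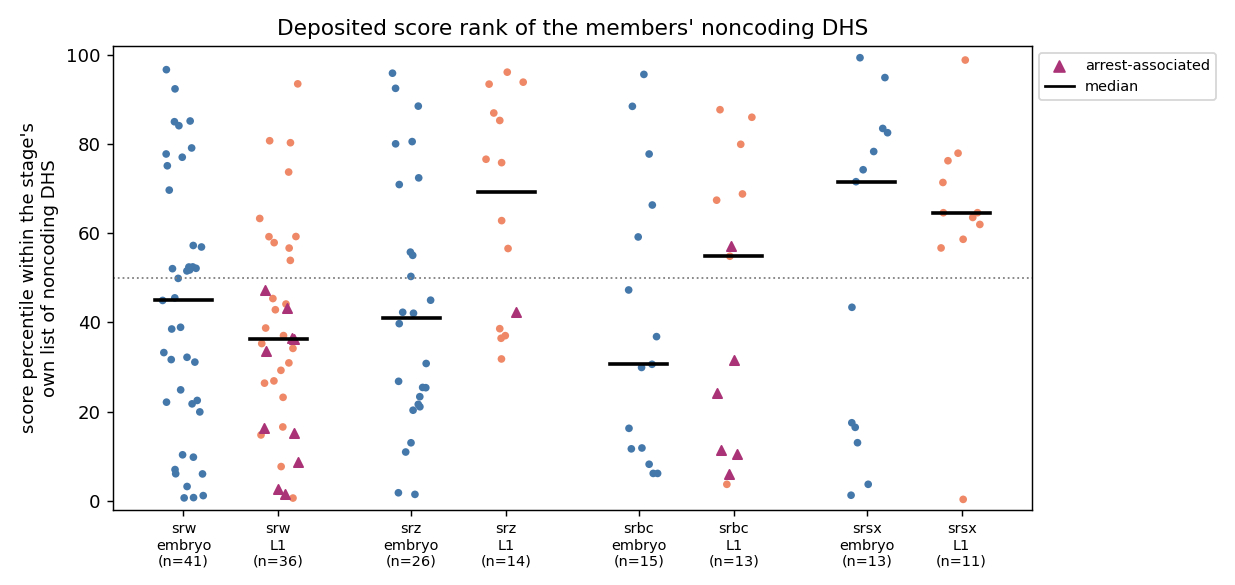
Percentile of the deposited score of each DHS of a member within the noncoding DHS list of its own stage, by family and stage; points are DHS, horizontal lines medians, triangles arrest-associated DHS and n the number of DHS. The triangles lie between 1.495 and 57.0, and the srsx points of L1 lie above 50 with 1 exception.

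The highest-scoring DHS of any member belonged to srsx-35. It lay in an intron at chrV:20681961-20682110 (ce10) and had the same borders at both stages, with a score of 2681 in the embryo (percentile 99.4) and 2059 in L1 (percentile 98.8). It held 4 merged footprints in the embryo and 3 in L1, a footprint being a short protected stretch inside a DHS. A further srsx-35 site, 451 bp from the gene in the embryo and 431 bp in L1, ranked at 13.02 and 71.4.

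The most sites were assigned to srsx-8. Its 5 embryo DHS lay 1239, 2559, 3819, 9019 and 11119 bp from the gene, with percentiles of 94.9, 1.25, 74.2, 78.3 and 83.5. Its 4 L1 DHS lay 1259, 3799, 9039 and 11139 bp away, with percentiles of 62.0, 0.317, 56.7 and 64.6. Each L1 site had an embryo partner, and the embryo site at 2559 bp, the lowest ranked, had none in L1.

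The remaining srsx members also had DHS at both stages. The intron DHS of srsx-17 and the DHS 1069 bp from srsx-19 had identical borders at both stages, at percentiles of 71.6 and 43.4 in the embryo and 58.6 and 64.6 in L1. At srsx-40 the DHS nearest the gene ranked at 16.5 in the embryo and 76.3 in L1. At srsx-9 a DHS 3481 bp away in the embryo held 7 merged footprints, the most of any embryo DHS of a member, and a further embryo DHS, 3081 bp away, had no L1 partner.

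In the srz family the leading sites were those of srz-64, srz-32 and srz-94. All 3 embryo and 2 L1 DHS of srz-64 lay in introns, and the one at chrII:1292201-1292350 in the embryo scored 849 (percentile 95.9), with its L1 partner at 612 (percentile 93.9). A DHS 690 bp from srz-32 had the same borders at both stages, with a percentile of 80.0 in the embryo and 96.1 in L1. The DHS 949 bp from srz-94 was also the same at both stages, at percentiles of 92.5 and 93.4. Further, srz-72 had 2 embryo DHS and 1 in L1, srz-25 had 1 at each stage, and srz-82 had 2 in the embryo and none in L1.

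In the srbc family srbc-40 had the most sites. Its 3 embryo DHS ranked at 77.8, 30.6 and 66.3, and its 4 L1 DHS at 68.8, 67.4, 87.7 and 31.6, the first outside the gene and the rest in introns in each case. The last of the L1 sites had no embryo partner. The highest rank of the family belonged to srbc-84, whose DHS 79 bp from the gene had identical borders at both stages, at percentiles of 95.6 and 86.0. At srbc-51 a DHS 592 bp away was likewise identical, at 59.2 and 54.8.

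In the srw family the highest rank belonged to srw-82, whose intron DHS had a percentile of 96.7 in the embryo and 93.5 in L1. The most sites were at srw-61 and srw-85. At srw-61 there were 4 embryo DHS from 1906 to 4046 bp away, and the nearer 2 had L1 partners. At srw-85 there were 3 DHS at each stage. Both DHS of srw-32, 3687 and 4247 bp away, had identical borders at the stages.

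A smaller share of the DHS of the solo families than of all DHS lay in introns. In the embryo 26 of 95 were intronic (27.4%, 18.7 to 37.5), against 43.8% of all, 45.5% in Str, 47.0% in Sra and 46.4% in Srg. In L1 20 of 74 were (27.0%, 17.4 to 38.6), against 40.4% of all. Outside introns, DHS less than 300 bp from an end of the gene made up 20% in the embryo and 18.9% in L1, near the 19.2% and 18.8% of all. DHS at 300 bp or more made up 52.6% (42.1 to 63.0) and 54.1% (42.1 to 65.7), against 37.0% and 40.8%. With a limit of 1000 bp these intervals no longer lay above all DHS, at 32.6% (23.4 to 43.0; all 24.6%) in the embryo and 29.7% (19.7 to 41.5; all 27.2%) in L1. The distance column gives no side, so sites before and after a gene cannot be told apart. Among the families srsx had the largest share of DHS at 300 bp or more, with 10 of 13 in the embryo and 8 of 11 in L1. Of these, 5 embryo and 4 L1 DHS belonged to the single gene srsx-8. The intervals of the families for this share overlapped at each stage.

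Footprints were found in most sites. In the embryo 85 of 95 DHS of members held at least 1 footprint (89.5%, 81.5 to 94.8), against 82.0% of all, and in L1 65 of 74 did (87.8%, 78.2 to 94.3), against 84.0%. DHS narrower than 150 bp, which offer less room, made up 10.5% of the members' embryo DHS and 27.1% of all, and in L1 5.41% and 20.6%. Among DHS of at least 150 bp the members' share was near that of all. It was 94.1% (all 93.3%) in the embryo and 91.4% (all 92.9%) in L1. Where there was any footprint, the mean number after merging was 2.69 in the embryo (all 2.62) and 2.37 in L1 (all 2.47).

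Arrest-associated DHS, which the authors listed as L1 noncoding DHS without an embryo counterpart, were found at 15 members. They numbered 17 of the 74 L1 DHS (23.0%, 14.0 to 34.2), against 11.4% of all L1 noncoding DHS. Without srw-34, which had 3 of them, it was 14 of 71 (19.7%, 11.2 to 30.9), an interval that includes the value of all L1 DHS. Str had 16.7%, Srg 21.6% and Sra 6.25%, so the Srg share lay within the interval of the solo families as well.

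This share ranged widely between the families. It was 46.2% for srbc (6 of 13, 19.2 to 74.9), 27.8% for srw (10 of 36, 14.2 to 45.2), 7.14% for srz (1 of 14, 0.181 to 33.9) and 0% for srsx (0 of 11, up to 28.5). The srbc interval lay above the value of all L1 DHS, and those of srz and srsx included it. The srw interval lay above it too, but without srw-34 the srw share was 21.2% (7 of 33, 8.98 to 38.9), with the value of all inside. All 4 intervals overlapped.

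At 9 genes, with 11 of the 17 DHS, the embryo table had no noncoding DHS. These were srw-1, srw-7, srw-29, srw-34, srbc-2, srbc-14, srbc-27, srbc-36 and srz-56. The other 6 DHS lay at genes with an embryo DHS elsewhere, namely srw-39, srw-60, srw-85, srw-111, srbc-40 and srbc-77. The DHS of srw-60, an intron part of 54 bp, overlapped an embryo DHS that is not in the noncoding list. Of the 17, 3 had an embryo DHS of any kind within 150 bp, and the median gap to the nearest was 1450 bp, with a maximum of 4710 bp. Neither the split by gene nor these gaps were counted over all arrest-associated DHS, so they have no background here. Arrest-associated DHS lack an embryo counterpart by definition and most members have a single DHS, so the split is partly set in advance.

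The 3 DHS of srw-34 lay in a row at chrV:16523461-16523610, chrV:16523821-16523970 and chrV:16524261-16524410 (ce10), 1191, 1551 and 1991 bp from the gene. Their percentiles were 2.68, 16.3 and 43.3, and each held 2 or 3 merged footprints. This was the largest difference in favour of L1 among the members. In the other direction the largest was 2 entries, at srw-61, srz-82 and srbc-32, and those of srbc-32 are parts of 1 DHS.

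The arrest-associated sites ranked low in score. Their median percentile in the L1 list was 24.2, from 1.495 at srw-1 to 57.0 at srbc-27, against 58.6 for the other 57 L1 DHS of members and 33.7 for all 1835 arrest-associated DHS. In the lowest quintile of the L1 list by score 8 of the members' 14 DHS were arrest-associated, in the next 5 of 18, in the middle 4 of 16 and in the upper quintiles 0 of 15 and 0 of 11. Over all L1 DHS the shares fell from 18.8% through 13.8%, 11.5% and 7.74% to 5.19%. At or above the 50th percentile of the list, 1 of the 36 DHS of members (2.78%) and 7.36% of all were arrest-associated, so the share of the members exceeded that of all L1 DHS among low-scoring sites and not among high-scoring ones.

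Footprints were as common in these sites as in the rest. Of the 17 arrest-associated DHS, 15 held a footprint (88.2%), as did 50 of the other 57 (87.7%), against 72.8% of all arrest-associated DHS. These shares count DHS of every width. By place, 5 were in introns, 3 within 300 bp of the gene and 9 farther away. On chromosome V lay 14 of them, with 1 each on I, II and III.

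**Figure D4:**
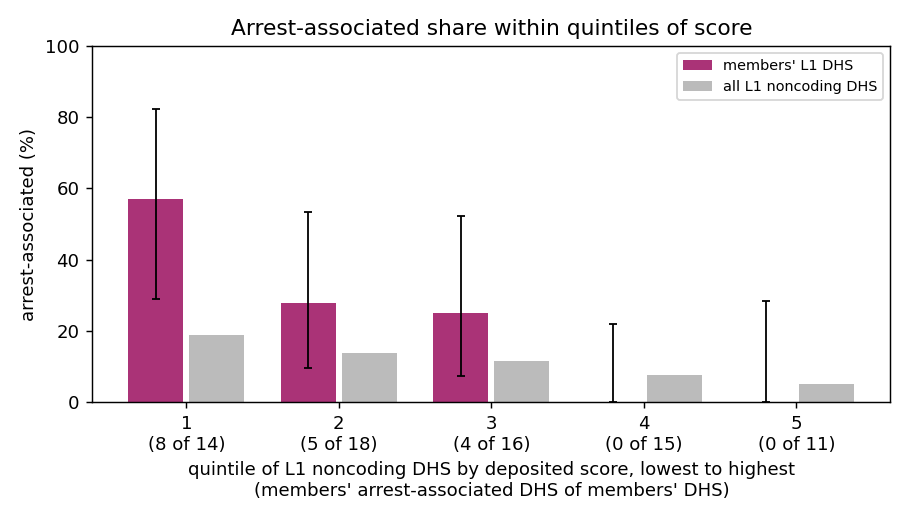
Arrest-associated share (%) of the members' L1 DHS and of all L1 noncoding DHS within quintiles of the deposited score, from lowest to highest; error lines are exact 95% binomial intervals for the members. The members' share is 8 of 14 in the lowest quintile and 0 of 15 and 0 of 11 in the upper ones.

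To compare genomic clusters, members' DHS of either stage were joined where the gap was at most 50 kb. This gave 48 clusters, of which 16 held DHS of at least 2 genes and 46 of the 78 genes, 6 held more than 1 family, 12 had only embryo DHS and 6 only L1 DHS. The most genes in a cluster were 5. On IV, srz-32, srz-37, srz-60, srz-69 and srz-82 shared a stretch of 56.3 kb (chrIV:3431181-3487430) with 6 embryo and 3 L1 DHS of theirs among 13 and 6 noncoding DHS in all. On V, srw-42, srw-44, srw-73, srw-75 and srz-1 shared 104 kb (chrV:16588001-16691830) with 6 embryo and 2 L1 DHS.

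Some clusters held no site of any other gene. At chrV:15929581-15953550 the 4 embryo and 5 L1 noncoding DHS all belonged to srbc-77, srw-53, srw-55 and srw-57. At chrV:1705081-1715950 the 4 embryo and 4 L1 DHS all belonged to srw-90, srw-99 and srw-100. The cluster of srbc-18, srbc-22 and srbc-23 at chrV:2155113-2171070 had 3 embryo DHS and no noncoding L1 DHS of any gene. These 3 sites ranked low, at percentiles of 36.8, 29.9 and 8.20. Clusters thus had sites at both stages in some cases and at 1 stage in others. Each cluster runs from its first to its last DHS of a member, so sites of other genes just outside are not counted.

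Gene arrays were also defined without regard to DHS, as runs of coding genes of the 4 families with at most 5 other coding genes between neighbours, a limit chosen after the data were seen. Of 61 genes standing alone 31.1% (19.9 to 44.3) had an embryo DHS and 24.6% (14.5 to 37.3) an L1 DHS. In 35 runs of 2 to 4 genes (84 genes) it was 19.05% (11.3 to 29.1) at both stages. In 15 runs of 5 or more (134 genes) it was 22.4% (15.6 to 30.4) and 14.9% (9.36 to 22.1). The intervals of the 3 classes overlapped at each stage.

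The long arrays differed among themselves. The longest, 21 srw genes from srw-141 to srw-8 on V, had an embryo DHS at 3 genes (srw-112, srw-115 and srw-136) and an L1 DHS at 2. Of the 9 other coding genes inside that array, 2 had a DHS at each stage. The next, 14 genes of srw, srbc and srsx from srw-24 to srw-19 on V, had none at either stage. The 10 other coding genes inside it had none either, so the lack was not particular to the receptor genes. The 5 genes from srsx-26 to srsx-30 also had none. An array of 10 srz genes on IV, from srz-60 to srz-83, had a DHS at 5 genes in the embryo and 3 in L1. Of the 12 other coding genes inside it, 6 had one in the embryo and 3 in L1. In the array of 7 genes from srbc-77 to srw-57 on V, 4 had one at each stage. The srz genes of IV had an embryo DHS in 9 of 27 cases and an L1 DHS in 5, and those of V in 6 of 26 and 2.

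**Figure D5:**
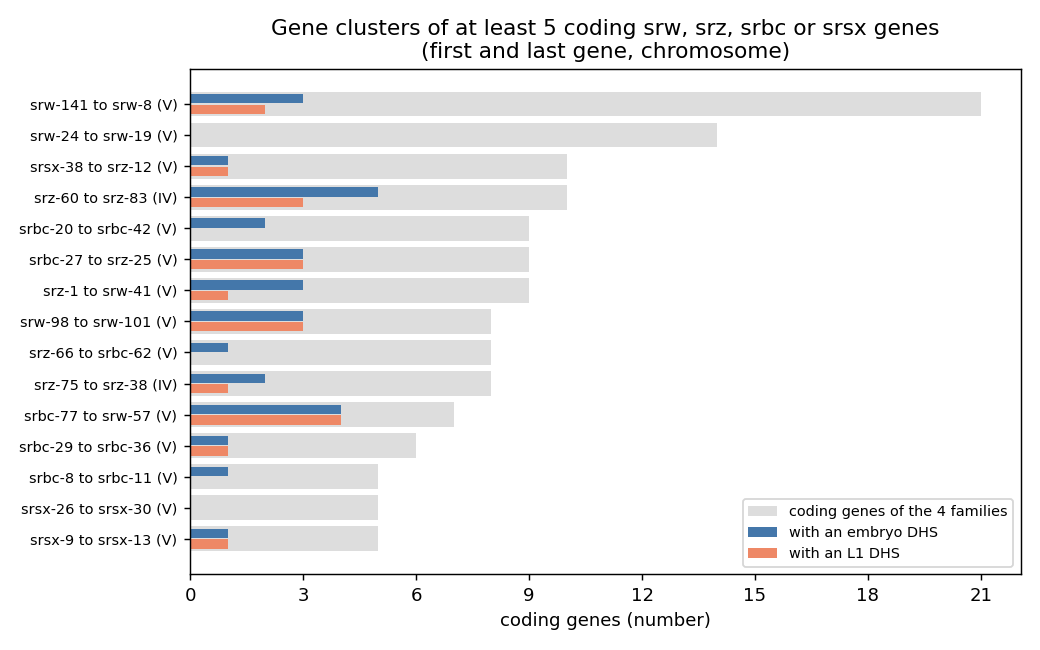
Number of coding srw, srz, srbc and srsx genes in each of the 15 runs of at least 5 such genes (grey), with the number that has an embryo DHS (upper coloured bar) and an L1 DHS (lower coloured bar); runs are named by their first and last gene and their chromosome. The run of 14 genes from srw-24 to srw-19 and the run of 5 from srsx-26 to srsx-30 have none. The 10 other coding genes inside the run of 14, not drawn, have none either.

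Listed genes that work with chemoreceptors or control the fate of the sensory neurons had a site in a larger share of cases. Of 32 listed chemosensory genes, 25 had a noncoding DHS in the embryo and 18 in L1, against 52.4% and 38.9% of all coding genes. The list was written by hand, and no interval was computed for its counts. It shares odr-3, tax-2 and tax-4 with the amphid genes above. The medians were 2 and 1 DHS over the 32 genes. More DHS in the embryo were found at 15 of them, equal numbers at 16 and more in L1 at 1. The 16 include genes with no DHS at either stage, such as odr-1, a kind that the split of the members leaves out. The gene with more in L1 was unc-101 (3 and 4), which encodes a clathrin adaptor subunit used to sort receptors towards cilia. The G protein subunit gene odr-3 had 5 and 3, the cyclic nucleotide-gated channel subunit gene tax-4 had 4 and 2, and the cGMP-dependent kinase gene egl-4 had 13 and 9. The cilium regulator gene daf-19 had 8 and 5, while ceh-37, a homeobox gene of sensory neuron fate, had 6 and 0. The diacetyl receptor gene odr-10, a member of the Str superfamily, had 1 at each stage.

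The authors' deposited motif table, made from embryo DHS, lists genes under motif words. It names 8 members in 13 entries, under 10 of 56 words. That is 11.8% of the 68 embryo members, against 19.8% of all genes of the embryo table. No interval was computed for this share. Among coding genes with an embryo DHS, 26.2% of the members and 54.1% of all genes had at least 2. The contrast was not adjusted for that. Words that list srw-90 and srw-85 are shown because they consist of plain letters, with N for any base, and tie a sequence to a member. Both genes lie on V, and srw-90 is listed under 2 such words.
srw-90, first word: AAAATCATATG
srw-90, second word: CTTGTACGGAA
srw-85: GGANTCGAACC
The words for srw-90 list 19 and 18 genes in all and the word for srw-85 lists 44, so each is shared with genes of other families. A listing is a description of the table, and whether a factor binds there was not tested.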

How the data were processed

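Nuclei of N2 embryos (4 replicates) and arrested L1 larvae (5 replicates) were profiled by DNase-seq, per the labels, with reads of 50 bp in 3 replicates of each stage and 76 bp in the rest. The submitters' processing notes name the build ce10, Bowtie 1.0.0, FastQC and SAMtools. Per the series design text, the authors called DHS with HOTSPOT version 3 over 150 bp windows, filtered them at an IDR level of 0.1, removed repeats and blacklisted regions and merged them to 41825 embryo and 23670 L1 DHS, and found footprints with DNase2TF at an FDR of 0.05. The same text says that pseudogenes were left out of the annotation (WormBase release 241), yet 4 members are pseudogenes in the RefSeq table used here. The deposited score of each DHS and footprint has a scaling not given in the sources used here, so DHS scores were used to rank within a list only. The deposited motif table holds gene names under other labels and no measurement.

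Gene tables were read by symbol. All 78 members matched the RefSeq gene table of WBcel235, another build than ce10, which was used for names, gene types and gene order only. Overlap means at least 1 bp, and overlapping footprints were merged. Coordinates are in ce10 and count from 1. The deposited distance ran to the nearer end of the assigned gene on either side. Shares have exact (Clopper-Pearson) intervals from SciPy 1.17.1, with Python 3.11.15 and pandas 2.3.3. The counting steps were checked on simulated data. No test was run, because each stage is 1 merged list and the read depth behind a site is unknown. The members, lists and comparisons were chosen with earlier results of these data known. Named genes are members with an arrest-associated DHS or an L1 DHS only, the 4 with most DHS per family, those with the 5 best scores per stage and the largest stage differences. Other members in the text, such as those that describe clusters, the ends of a range or the rest of the srsx family, were chosen after their values were seen. Shares of promoters holding a motif were planned and were not computed, since promoter sequences were not used here.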

Additional observations from a re-analysis of the deposited data

How the results depend on the processing

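Alternatives changed the DHS number, score limit, list length, distance, gene assignment, overlap, width and denominator one at a time. For the 4 families pooled, 29 of 42 alternatives stayed within the interval or range of the reported value and 13 moved outside it. The share of genes with a DHS lay below that of all coding genes in 11 of 11 pooled and 44 of 44 single-family alternatives. In the embryo that share was 6.09% (all genes 28.4%) for at least 2 DHS, 11.1% (33.97%) at or above the 50th percentile by score, 14.0% (38.5%) with the embryo list cut to the L1 number and 18.2% (49.1%) with pseudogenes counted. In L1 it was 5.02% (17.5%) and 10.04% (23.8%) for the first and second of these. With the cut embryo list, overlap was 81.6% (all 76.0%) for embryo DHS and 54.1% (76.0%) for L1 DHS. With a limit of 1000 bp, near DHS made up 40% (31.6%) in the embryo and 43.2% (32.4%) in L1, and far DHS 32.6% (24.6%) and 29.7% (27.2%). The arrest-associated share at or above the 50th percentile was 2.78% (7.36%), below all L1 DHS; without srw-34 it was 19.7% and for coding members 23.9%, both chosen after seeing the data. Gaps of 20 and 100 kb gave 57 and 42 clusters in place of 48. The cause of these moves was not tested, beyond the fewer sites that stricter limits leave.

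Leaving out replicates was not run, because the lists are merged over replicates. No paired analysis was possible because the stages have no replicate letter in common and the lists hold no replicates. The promoter motif shares and their alternative were not run. The read depth is unknown, so a missing site is a site not called.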
